A study of Mus musculus with 9 samples.

Results

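The genes described are 10 mouse germline genes that promoter DNA methylation is known to keep silent in the epiblast and in somatic cells. They were taken by name for this known silencing, with earlier results of these data known, and no threshold on their levels was applied: Dazl, Ddx4, Mael, Asz1, Sycp1, Sycp3, Hormad1, Taf7l, Slc25a31 and Stk31. All 10 have a row among the 23453 gene symbols of the deposited table. Bulk RNA-seq was done on 9 libraries, 3 for each of 3 states of one in vitro model of the mouse epiblast. EpiLCs, epiblast-like cells, were made from naive ESCs over 48 h in N2B27 medium with KSR, FGF2 and Activin A. For aEpiLCs, the anterior-like state, EpiLCs were kept for a further 24 h in basal N2B27 medium, to which the methods add KSR. For pEpiLCs, the posterior-like state, the further 24 h were in medium with the Wnt pathway activator CHIR99021 and Activin. The study calls the cells of its aEpiLC and pEpiLC comparison wild-type, the cell line behind these libraries is not given in the sources used here, and nothing says that the 3 libraries of a state came from separate cultures. The p-values below therefore measure the spread between libraries, which may be technical.

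In the mouse, DNA methylation is laid down across the genome as the embryo implants, by the de novo methyltransferases DNMT3A and DNMT3B. Most CpG-rich promoters escape it, and those of a set of germline genes are an exception. These genes act in germ cells, in the RNA control of germ cell fate, in the defence against transposons by piRNAs, and in the pairing of chromosomes at meiosis. The Polycomb complex PRC1.6 is known to mark their promoters early through E2F6, which reads a TCCCGC core, and through MGA with MAX, which reads the E-box CACGTG, and H3K9 methyltransferases act with it. EpiLCs stand at the stage at which this silencing is being set up. The libraries measured RNA only, so the label "silenced by methylation" could be compared with transcript levels and not with methylation.

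The promoters are shown first because the known silencing acts on them. RefSeq promoter windows of GRCm38.p6, each 300 bases around a gene's start, were found for 10 of 10 genes. The stretches printed here lie upstream of the annotated start, are written 5′ to 3′ along the gene's strand, and have in capitals each E-box (CACGTG, the same on both strands) and each E2F6 core (TCCCGC, or GCGGGA where it is on the other strand). Dazl is shown as a promoter with neither motif, Mael, Sycp3 and Hormad1 as promoters with both, and Taf7l as one with an E-box alone.
Dazl, chr17:50293637-50293870, minus strand: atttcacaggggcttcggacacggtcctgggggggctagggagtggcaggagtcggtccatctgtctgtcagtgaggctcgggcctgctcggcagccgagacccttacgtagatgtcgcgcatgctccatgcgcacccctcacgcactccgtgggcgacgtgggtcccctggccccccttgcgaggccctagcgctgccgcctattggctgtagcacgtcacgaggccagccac
Mael, chr1:166238748-166238994, minus strand: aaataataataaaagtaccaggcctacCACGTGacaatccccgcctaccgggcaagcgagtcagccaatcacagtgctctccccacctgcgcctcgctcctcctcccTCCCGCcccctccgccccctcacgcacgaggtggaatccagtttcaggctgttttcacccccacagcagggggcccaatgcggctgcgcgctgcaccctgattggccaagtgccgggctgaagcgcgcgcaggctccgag
Sycp3, chr10:88459337-88459568, plus strand: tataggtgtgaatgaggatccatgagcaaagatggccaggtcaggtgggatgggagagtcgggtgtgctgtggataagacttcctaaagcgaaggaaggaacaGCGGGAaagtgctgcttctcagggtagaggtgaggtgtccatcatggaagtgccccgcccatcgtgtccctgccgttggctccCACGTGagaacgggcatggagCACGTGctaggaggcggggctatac
Hormad1, chr3:95559427-95559676, plus strand: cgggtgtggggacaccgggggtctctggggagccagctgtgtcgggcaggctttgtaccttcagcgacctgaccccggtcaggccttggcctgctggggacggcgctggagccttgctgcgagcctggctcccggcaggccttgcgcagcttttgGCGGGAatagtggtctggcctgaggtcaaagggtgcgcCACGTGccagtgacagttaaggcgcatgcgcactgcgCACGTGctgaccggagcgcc
Taf7l, chrX:134476491-134476740, minus strand: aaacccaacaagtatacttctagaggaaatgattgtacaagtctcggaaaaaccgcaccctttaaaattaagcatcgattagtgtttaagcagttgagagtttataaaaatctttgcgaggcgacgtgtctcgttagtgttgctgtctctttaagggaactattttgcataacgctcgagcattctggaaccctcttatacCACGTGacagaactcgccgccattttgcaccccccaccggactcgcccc

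Over the whole 300-base windows, 8 of the 10 genes (80%) held an E-box, against 9.44% of the 14497 windows of symbols in the deposited table. The E2F6 core was in 6 of 10 (60%), against 31.9% of those windows. Both motifs stood together in the windows of the same number of genes, 6 of 10 (60%), namely Ddx4, Mael, Sycp1, Sycp3, Slc25a31 and Hormad1, against 3.46%. Sycp3 and Hormad1 had 2 E-boxes each, the whole Mael window held 2 cores (1 lies in the stretch printed), Taf7l and Stk31 had an E-box without the core, and the windows of Dazl and Asz1 held neither sequence. In other germline genes, listed below by their roles, 11 of 46 windows (23.9%) had an E-box and 17 (37%) the core. A match describes the letters of the window, and no match says only that these letters are not in it.

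As a set, the 10 windows also held more CpG than those of the deposited table. Their median was 23 CpG, with 62.3% GC and an observed over expected CpG ratio of 0.811, and the windows of the deposited table had medians of 18 CpG, 59.3% and 0.699. Within the 10, the ratio went from 0.666 for Sycp3 to 1.03 for Taf7l, which lies on the X chromosome and had the lowest GC content, 47%. Sycp3 was thus below the median ratio of the deposited table. Sycp3, Taf7l and Asz1 were below its median number of CpG, with 15, 17 and 17. The other germline genes had a median ratio of 0.576. The motif and CpG values were compared as descriptions, with no test.

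**Figure D1:**
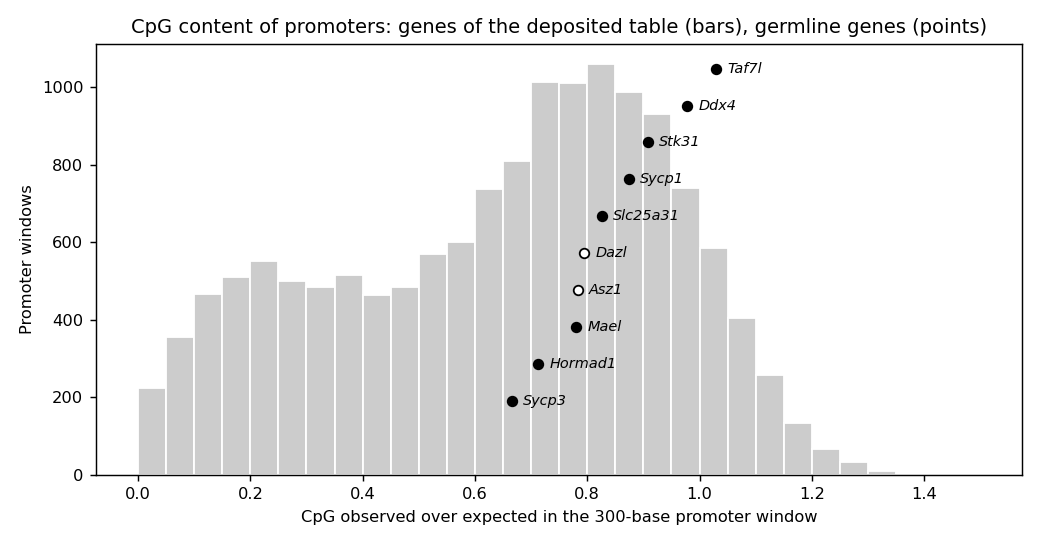
Observed over expected CpG ratio in 300-base promoter windows; bars count the windows of symbols in the deposited table, and points mark the 10 germline genes, spaced vertically only for legibility (filled, window with an E-box; open, without). The 10 genes lie between 0.666 and 1.03, around and to the right of the tallest bars.

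Depth was similar throughout, from 20560564 to 23417917 total counts (median 21675291). The detection limit was set at 3 counts, or 0.131 to 0.144 CPM, where CPM is a count scaled to library size with TMM normalisation. Epiblast identity was checked on 6 markers, which summed to 2010–2040 CPM in EpiLCs, 1750–1870 in aEpiLCs and 1070–1510 in pEpiLCs. The largest part was Pou5f1 (means of 1120, 936 and 962 CPM, not called), and in pEpiLCs against EpiLCs Pou3f1 (log2 fold change −2.64), Utf1 (−2.60) and Sox2 (−1.34) were called lower and Fgf5 (1.00) higher (adjusted p = 0.00314, 0.00289, 0.0133 and 0.000151). One library stood apart: between pEpiLC replicate 1 and the other pEpiLC libraries, 324 and 331 of 15797 genes differed by over 4-fold, against 57 to 76 for the 7 other pairs within a state. This pEpiLC replicate 1 was also the lowest of the 9 libraries for Sox2 (11.6 CPM), Utf1 (27.2 CPM) and Pou3f1 (10.5 CPM). Gata6, listed here among markers of extraembryonic endoderm, was at 46.7 CPM in that library and at 0.0876 and 0.140 CPM in pEpiLC replicates 2 and 3. The 6 extraembryonic endoderm markers in the table summed to 65.9 CPM there, and to 7.03–7.84 in the other pEpiLCs, a difference carried by Gata6 and by Gata4 (12.4 CPM there, 0.438 and 0.326 in the others). The remaining members were not raised in it: Sox7 and Apoa1 were at 0, and Dab2 (5.94 CPM) and Amn (0.814 CPM) lay within the range of the other pEpiLCs. Which cells held the Gata6 and Gata4 transcripts was not tested. Fits of pEpiLCs were therefore repeated without it, and the values without it are given for the 10 genes against EpiLC and for each reported change whose call differed.

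Most of the 10 genes were transcribed in EpiLCs and lower a day later in both directions of culture. No library came from cells kept in EpiLC medium for the further 24 h. In every comparison with EpiLC, time and the change of medium therefore cannot be told apart. Summed over the 10, the level was 136–153 CPM in EpiLCs, 59.8–80 CPM in aEpiLCs and 34.7–53.7 CPM in pEpiLCs, so that the 3 states did not overlap. In aEpiLCs against EpiLCs, 7 of the 10 genes were called lower and 0 higher, where 12.5% of 15301 tested genes were called, 5.24% lower and 7.25% higher. In pEpiLCs against EpiLCs, 8 of 10 were called lower and 0 higher, beside 15.8% of 15288, 8.13% lower and 7.71% higher. Every later library was below every EpiLC library for 8 of 10 in aEpiLCs and 9 of 10 in pEpiLCs, against 26.3% and 28.4% of tested genes. To be called, a gene needed a fold change of at least 2 (1 on the log2 scale) and an adjusted p under 0.05 (Benjamini-Hochberg, over all genes) in edgeR's quasi-likelihood test. Asz1 was too low to be tested in any comparison. Both comparisons use the same EpiLC libraries, so their values are given side by side and were not correlated. With no filter on low counts, the median log2 fold change of all 10 was −2.08 in aEpiLCs and −2.45 in pEpiLCs, beside 0.00 and 0.01 for all genes. Without pEpiLC replicate 1 the count in pEpiLCs was again 8 of 10, with log2 fold changes of −4.20 for Hormad1, −3.62 for Taf7l, −3.32 for Dazl, −2.82 for Slc25a31, −2.69 for Mael, −1.68 for Stk31, −1.21 for Sycp1 and −1.17 for Ddx4. In bulk RNA, fewer cells with a transcript and less RNA per cell cannot be told apart.

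**Figure D2:**
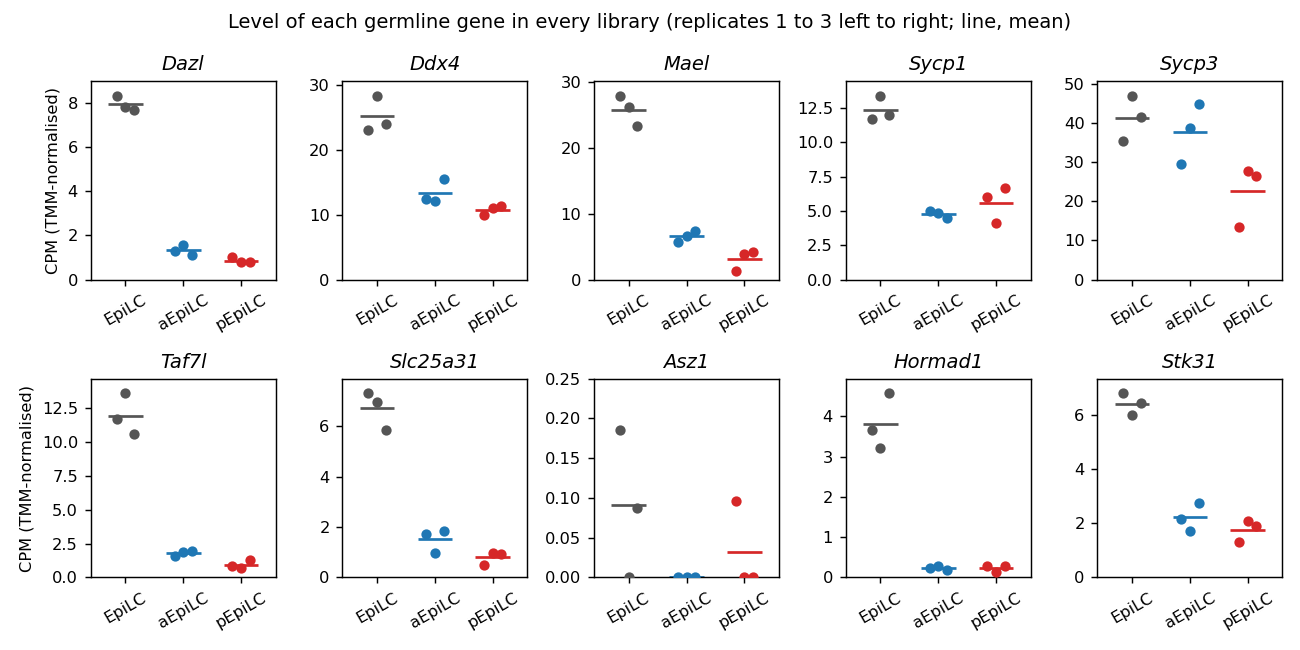
Level of each of the 10 genes in CPM (vertical axis from 0, a scale for each gene) in the 3 EpiLC, 3 aEpiLC and 3 pEpiLC libraries; points are libraries and lines are means. For 8 genes every EpiLC library lies above every aEpiLC and pEpiLC library; Sycp3 in aEpiLCs (29.5 to 44.9 CPM) overlaps EpiLCs (35.5 to 47 CPM), and Asz1 stays near 0.

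Dazl and Ddx4 encode the RNA-binding protein and the RNA helicase by which germ cells are usually recognised. Dazl (ENSMUSG00000010592.9, chr17:50279395-50293636, minus strand) was at 8.32, 7.82 and 7.66 CPM in EpiLC replicates 1 to 3, at 1.31, 1.58 and 1.10 CPM in aEpiLCs and at 1.01, 0.789 and 0.792 CPM in pEpiLCs. Its EpiLC libraries were tightly grouped and far above all others. The means were 7.93 ± 0.348, 1.33 ± 0.240 and 0.862 ± 0.124 CPM (SD, n = 3 for each state, as for every SD given), and the log2 fold change against EpiLC was −2.58 in aEpiLCs (SE 0.186, adjusted p = 1.78e-07) and −3.20 in pEpiLCs (SE 0.189, adjusted p = 5.26e-05). Dazl thus fell 5.95-fold and 9.20-fold in mean CPM.

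Ddx4 (ENSMUSG00000021758.14, chr13:112598333-112652475, minus strand) was at 23.1, 28.4 and 24.1 CPM in EpiLCs, at 12.5, 12.1 and 15.5 CPM in aEpiLCs and at 9.91, 11.1 and 11.3 CPM in pEpiLCs. EpiLCs were above both later states in every library, yet Ddx4 kept a larger share of its EpiLC level than Dazl did. The log2 fold change was −0.93 in aEpiLCs (SE 0.12, adjusted p = 3.53e-05), short of the fold limit, and −1.23 in pEpiLCs (SE 0.119, adjusted p = 0.000357), where it was called. Without aEpiLC replicate 3, the highest of its state, the change in aEpiLCs was −1.05 and was called.

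Mael and Asz1 belong to the piRNA pathway, in which small RNAs bound by PIWI proteins silence transposons in germ cells. Mael (ENSMUSG00000040629.8, chr1:166201201-166238747, minus strand) was at 27.9, 26.2 and 23.3 CPM in EpiLCs, at 5.72, 6.65 and 7.36 CPM in aEpiLCs and at 1.29, 3.81 and 4.19 CPM in pEpiLCs. The 3 states formed 3 separate steps, with pEpiLC replicate 1 lowest of all. Mael fell 3.93-fold in aEpiLCs (log2 fold change −1.99, SE 0.122, adjusted p = 4.90e-08) and 8.33-fold in pEpiLCs (−3.06, SE 0.352, adjusted p = 0.00069). Without pEpiLC replicate 1 the latter change was −2.69. Asz1 (ENSMUSG00000010796.11, chr6:18050964-18109061, minus strand) had 4, 0 and 2 counts in EpiLCs, 0 in each aEpiLC library and 2, 0 and 0 in pEpiLCs. It was thus at or near the limit of 3 counts throughout, a change was not detectable at this depth, and no fold change is given.

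Sycp1, Sycp3 and Hormad1 encode proteins of meiotic chromosomes: SYCP1 forms the transverse filaments of the synaptonemal complex, SYCP3 its lateral elements, and HORMAD1 marks unpaired axes. Sycp1 (ENSMUSG00000027855.13, chr3:102818499-102936100, minus strand) was at 11.7, 13.4 and 12.0 CPM in EpiLCs, at 5.02, 4.84 and 4.46 CPM in aEpiLCs and at 5.99, 4.12 and 6.66 CPM in pEpiLCs. Both later states were below EpiLCs in every library and overlapped each other. The log2 fold change was −1.39 in aEpiLCs (SE 0.131, adjusted p = 2.07e-06) and −1.15 in pEpiLCs (SE 0.193, adjusted p = 0.00303). Without pEpiLC replicate 2 the change in pEpiLCs was −0.97, short of the fold limit.

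Hormad1 (ENSMUSG00000028109.14, chr3:95559677-95587671, plus strand) was at 3.65, 3.21 and 4.57 CPM in EpiLCs, at 0.234, 0.271 and 0.184 CPM in aEpiLCs and at 0.287, 0.131 and 0.279 CPM in pEpiLCs. The later libraries held 3 to 6 counts each, close to the detection limit, where EpiLC libraries held 69 to 105. Of the tested genes among the 10 it had the largest fall in both states, 16.6-fold in aEpiLCs (log2 fold change −4.03, SE 0.319, adjusted p = 4.20e-07) and 16.4-fold in pEpiLCs (−4.02, SE 0.34, adjusted p = 0.000209).

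Sycp3 (ENSMUSG00000020059.9, chr10:88459569-88473236, plus strand) went another way. It was at 35.5, 47.0 and 41.6 CPM in EpiLCs, at 29.5, 38.7 and 44.9 CPM in aEpiLCs and at 13.5, 27.8 and 26.4 CPM in pEpiLCs. EpiLCs and aEpiLCs overlapped, and pEpiLCs were below both. The log2 fold change was −0.15 in aEpiLCs (SE 0.133, adjusted p = 0.39), and without aEpiLC replicate 1 it was 0.01. In pEpiLCs it was −0.88 (SE 0.252, adjusted p = 0.0248), short of the fold limit. That value was −0.61 without pEpiLC replicate 1, and −1.06 and called without pEpiLC replicate 2. Its share of the 10 genes' summed CPM was 26.1–30.8% in EpiLCs, 49.4–56.3% in aEpiLCs and 38.9–54% in pEpiLCs, so that the sums of both later states rest to a large part on Sycp3. Its exons overlap those of Chpt1 on the opposite strand, its estimated counts were not exactly whole, at a tolerance of 0 counts, in 9 of 9 libraries (0 of 9 for each of the other genes), and whether the counting used strand is not given in the sources used here, so its level is uncertain.

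The last group has more varied roles. Taf7l encodes a germ cell form of a TFIID subunit of the basal transcription machinery, Slc25a31 a mitochondrial ADP/ATP carrier of germ cells, and Stk31 a Tudor-domain protein with a kinase-like domain. Taf7l (ENSMUSG00000009596.9, chrX:134460118-134476490, minus strand) was at 11.7, 13.6 and 10.6 CPM in EpiLCs, at 1.59, 1.90 and 1.93 CPM in aEpiLCs and at 0.862, 0.701 and 1.26 CPM in pEpiLCs. Its 3 states did not overlap. Taf7l fell 6.61-fold in aEpiLCs (log2 fold change −2.73, SE 0.167, adjusted p = 4.76e-08) and 12.7-fold in pEpiLCs (−3.67, SE 0.239, adjusted p = 8.10e-05).

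Slc25a31 (ENSMUSG00000069041.8, chr3:40708855-40726096, plus strand) was at 7.31, 6.98 and 5.87 CPM in EpiLCs, at 1.74, 0.950 and 1.84 CPM in aEpiLCs and at 0.479, 0.964 and 0.931 CPM in pEpiLCs. EpiLCs were above the rest, and aEpiLC replicate 2 lay within the pEpiLC range. The log2 fold change was −2.17 in aEpiLCs (SE 0.229, adjusted p = 5.95e-06) and −3.08 in pEpiLCs (SE 0.274, adjusted p = 0.00025). Stk31 (ENSMUSG00000023403.14, chr6:49395604-49469501, plus strand) was at 6.80, 6 and 6.44 CPM in EpiLCs, at 2.16, 1.72 and 2.76 CPM in aEpiLCs and at 1.29, 2.10 and 1.91 CPM in pEpiLCs. It too was highest in every EpiLC library, with overlap of the later states. Stk31 fell by 1.55 on the log2 scale in aEpiLCs (SE 0.194, adjusted p = 2.74e-05) and by 1.86 in pEpiLCs (SE 0.215, adjusted p = 0.000717).

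Per kb of exon, the order of mean levels in EpiLCs was Sycp3 (32.7 CPM per kb), Mael (14.9), Ddx4 (8.36), Taf7l (5.35), Sycp1 (3.49), Slc25a31 (3.16), Hormad1 (2.20), Dazl (2.08), Stk31 (1.98) and Asz1 (0.0321). The libraries of Sycp1 and Slc25a31 overlapped, as did those of Hormad1 and Dazl and those of Dazl and Stk31, and the other neighbours were apart. In aEpiLCs Sycp3 (29.8 CPM per kb) was followed by Ddx4 (4.41) and Mael (3.80), whose libraries overlapped, and in pEpiLCs by Ddx4 (3.58) and Mael (1.79), whose libraries did not. Hormad1 moved from the seventh place in EpiLCs to the ninth in both later states, at 0.133 and 0.135 CPM per kb. Levels that had lain within 32.7 and 1.98 CPM per kb for 9 genes in EpiLCs lay within 29.8 and 0.133 in aEpiLCs.

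**Figure D3:**
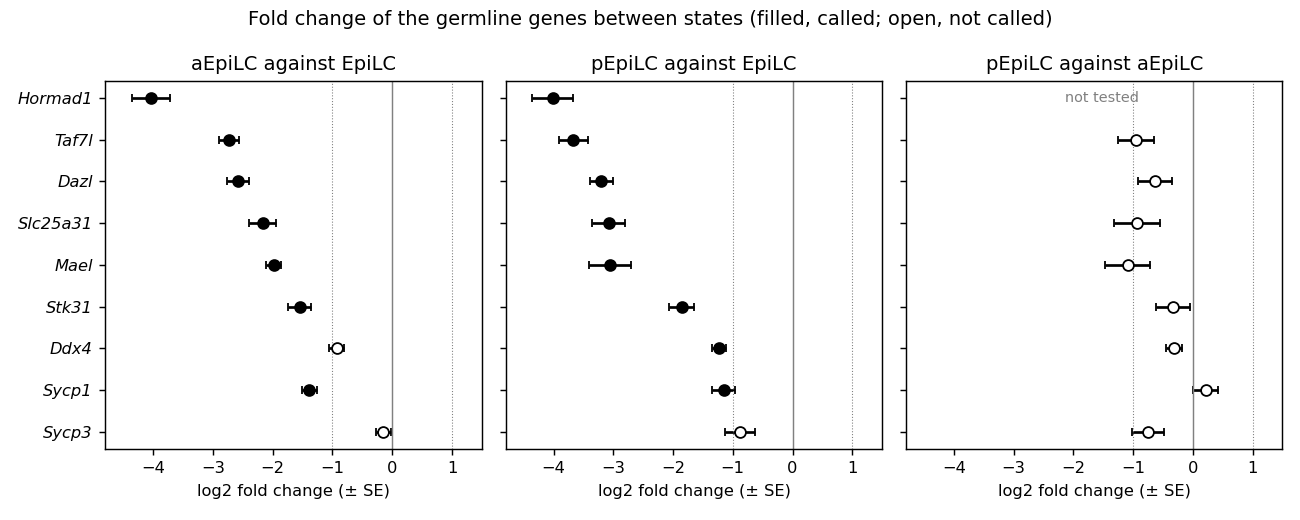
Fitted log2 fold change (horizontal axis, first state over second; bars, SE) of 9 germline genes in the 3 comparisons, from edgeR's quasi-likelihood fit; filled points were called, open points were not, and dotted lines mark a 2-fold change. Changes against EpiLC reach −4.03 for Hormad1, and between pEpiLC and aEpiLC they lie between −1.09 and 0.22 with no call for the 8 genes tested; Asz1 was not tested in any comparison, nor Hormad1 in the last.

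The comparison of pEpiLCs with aEpiLCs asks whether the 2 later states differed. Of the 10 genes, 0 were called by edgeR's quasi-likelihood test, where 7.29% of 15198 genes were called, 4.74% lower and 2.55% higher. Asz1 and Hormad1 were not tested here, 7 of the 8 tested had a negative fitted change, and Sycp1 a positive one. At an unadjusted p below 0.05 there were 4 (Mael, Slc25a31, Sycp3 and Taf7l), where 31% of all tested genes passed, and DESeq2 called 1, Mael, where it called 7.74% of genes. Every pEpiLC library was below every aEpiLC library for 5 of the 10 (Dazl, Ddx4, Mael, Sycp3 and Taf7l), against 19.6% of tested genes. An exact permutation test of 3 against 3 libraries always gives its smallest two-sided value, p = 0.1, where libraries do not overlap. It therefore adds nothing for these 5.

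The largest fitted difference between the later states was that of Mael, with a log2 fold change of −1.09 (SE 0.379, adjusted p = 0.0948), and −0.72 (adjusted p = 0.0135) without pEpiLC replicate 1, which is short of the fold limit. For Taf7l it was −0.95 (SE 0.299, adjusted p = 0.0715), for Slc25a31 −0.93 (SE 0.389, adjusted p = 0.151), and for Sycp3 −0.75 (SE 0.269, adjusted p = 0.103). Dazl had −0.64 (SE 0.287, adjusted p = 0.178), Stk31 −0.33 (SE 0.289, adjusted p = 0.486), Ddx4 −0.32 (SE 0.138, adjusted p = 0.164) and Sycp1 0.22 (SE 0.211, adjusted p = 0.533). With no filter, the median of the 10 was −0.48 and that of all genes −0.00. Values that miss the threshold do not show that the states were alike.

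Sycp3, the gene of the 10 with the highest mean CPM, was compared with 15796 other genes for the likeness of log2 CPM over the 9 libraries. The nearest were Rem2 (Pearson r = 0.986), Ndufaf3 (r = 0.984) and Ccdc106 (r = 0.982), none of them in the germline lists used here. Ccdc106 was at 4.36 to 6.38 CPM in aEpiLCs and at 1.77, 3.33 and 3.54 CPM in pEpiLCs, lowest, like Sycp3, in pEpiLC replicate 1. The 9 libraries share states and depth, and these values are descriptions.

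A further 55 germline genes were listed by role, and 54 of them are in the table (Nanos2 is not). In aEpiLCs against EpiLCs, 30 of the 54 were called lower and 0 higher, and in pEpiLCs against EpiLCs 31 were called lower and 2 higher. With no filter the median log2 fold change of the 54 was −1.47 and −1.66. The background is that given above, 5.24% and 8.13% of tested genes called lower.

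Among 23 genes of meiotic chromosomes and recombination, 12 were called lower in each comparison with EpiLC, and 1 was called higher in pEpiLCs. Of the 20 tested, 3 had a positive fitted change in aEpiLCs and 5 in pEpiLCs. Stag3, a meiotic cohesin subunit, had a mean of 59.9 CPM in EpiLCs, 9.75 in aEpiLCs (log2 fold change −2.63, adjusted p = 1.92e-08) and 12.1 in pEpiLCs (−2.31, adjusted p = 0.000151). Syce2, of the central element of the synaptonemal complex, fell from 78.6 CPM to 33.1 in aEpiLCs (−1.26, adjusted p = 2.16e-08) and 25.2 in pEpiLCs (−1.64, adjusted p = 0.000484). Smc1b, another meiotic cohesin subunit, and Tex11 fell as well, by 2.54 and 2.32 on the log2 scale in aEpiLCs (adjusted p = 1.48e-06 and 2.60e-07). Majin, which tethers meiotic telomeres to the nuclear envelope, had a mean of 1.35 CPM in EpiLCs and was at or under 3 counts in each aEpiLC library, at least 9.36-fold lower. The 1 gene of the list called higher was Tex15, a germ cell gene needed for recombination and transposon silencing, at 11.8, 10.2 and 9.96 CPM in EpiLCs, 23.3, 16.9 and 17.1 CPM in aEpiLCs and 146, 71.6 and 84.7 CPM in pEpiLCs. Its rise in pEpiLCs was called against EpiLC (3.23, adjusted p = 0.000209) and against aEpiLC (2.39, adjusted p = 0.00197), and without pEpiLC replicate 1, its highest library, the changes were 2.87 and 2.03 and were still called. The other 7 tested genes of the list, named after their values were seen, were not called in pEpiLCs against EpiLCs. Their log2 fold changes were 0.66 for Brdt, 0.37 for Terb1, 0.24 for Prdm9, 0.03 for Rec8, −0.50 for Mei4, −0.91 for Syce3 and −0.98 for Dmc1 (adjusted p = 0.126, 0.649, 0.476, 0.881, 0.186, 0.103 and 0.00177). Brdt was called lower in aEpiLCs against EpiLCs (−1.15, adjusted p = 0.00944). Spo11, which makes the breaks of meiotic recombination and was also named after its values were seen, was too low to pass the filter and be tested, with mean levels of 0.120 CPM in EpiLCs and 0.352 in aEpiLCs, and 1.63, 0.394 and 0.605 CPM in pEpiLC replicates 1 to 3. With no filter on low counts, 2 genes of the list were called higher in pEpiLCs against EpiLCs and 12 lower.

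Of 16 other piRNA pathway genes, 10 were called lower in aEpiLCs and 11 in pEpiLCs, with 1 called higher in pEpiLCs. The PIWI protein gene Piwil2 was at 10.4 CPM in EpiLCs, 3.41 in aEpiLCs (−1.63, adjusted p = 1.83e-06) and 1.56 in pEpiLCs (−2.74, adjusted p = 5.76e-05). It was the 1 gene of the 54 called lower in pEpiLCs against aEpiLCs (−1.13, adjusted p = 0.012). Piwil1 fell by 2.74 on the log2 scale in aEpiLCs (adjusted p = 1.05e-05) and by 3.50 in pEpiLCs (adjusted p = 0.000505). Of the Tudor-domain genes, Tdrd12 fell from 22 to 5.65 and 3.92 CPM (−1.98 and −2.49, adjusted p = 2.90e-07 and 0.000246) and Rnf17 from 54.3 to 24.1 and 18.2 CPM (−1.19 and −1.58, adjusted p = 1.04e-07 and 0.00068). Gtsf1, a PIWI partner, had a mean of 0.590 CPM in EpiLCs and was at least 4.1-fold lower in both later states. Tdrd5 differed from those that fell, at 11 CPM in EpiLCs and 10.8 in aEpiLCs (−0.04, adjusted p = 0.836). It was called higher in pEpiLCs, at 26.9 CPM (1.29, adjusted p = 0.00249, and 1.02 and still called without pEpiLC replicate 1). Tdrd1, Tdrd6, Tdrd9 and Tdrkh, named after their values were seen, were not called in aEpiLCs (−0.11, −0.36, 0.17 and −0.58, adjusted p = 0.431, 0.506, 0.781 and 0.00676). In pEpiLCs Tdrd6 was called lower (−1.19, adjusted p = 0.0283), but not without pEpiLC replicate 1 (−1.03, adjusted p = 0.0699). Tdrd1, Tdrd9 and Tdrkh were not called there (−0.98, 1.17 and −0.95, adjusted p = 0.00187, 0.106 and 0.00561).

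Of 15 other RNA-binding proteins, transcription factors and late germ cell genes in the table, 8 were called lower in aEpiLCs and 8 in pEpiLCs, with 0 higher. Sohlh2, a transcription factor of early spermatogenesis and oogenesis, fell from 11.9 CPM to 1.75 (−2.77, adjusted p = 4.23e-08) and 1.23 (−3.26, adjusted p = 6.85e-05). Tuba3a, a testis tubulin gene with a near-identical copy in Tuba3b, had the values 14.7, 1.41 and 1.35 CPM (−3.39 and −3.45, adjusted p = 1.01e-08 and 3.21e-05), which are uncertain where reads could be split between the copies. Rpl10l, a retrogene for a ribosomal protein of the large subunit, fell from 37.6 to 8.94 and 8.40 CPM (−2.09 and −2.17, adjusted p = 6.81e-09 and 3.91e-05). Ddx25, a testis RNA helicase, was at 12.5, 14.1 and 12.2 CPM and was not called (0.16 and −0.04, adjusted p = 0.237 and 0.803). Between pEpiLCs and aEpiLCs, 4 of the 54 were called, or 4 of the 37 tested, with Tex15, Brdt and Tdrd5 higher and Piwil2 lower, where 7.29% of all tested genes were called. That count was 1 without aEpiLC replicate 2, 2 without aEpiLC replicate 3 and 6 without pEpiLC replicate 1.

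**Figure D4:**
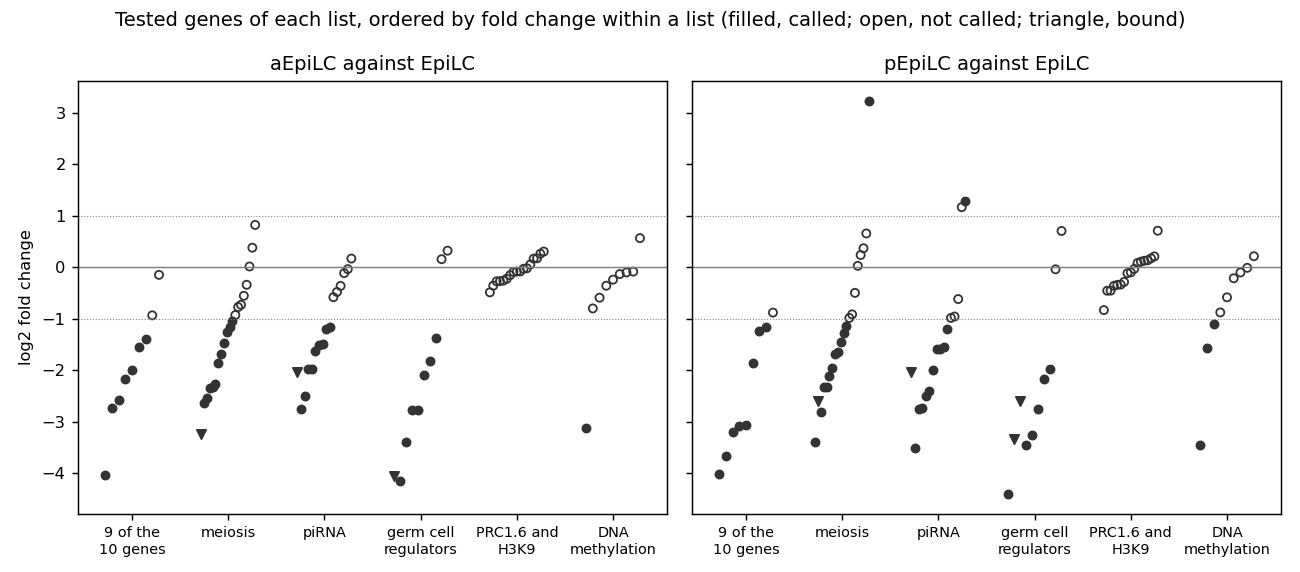
Fitted log2 fold change against EpiLC (vertical axis) of the tested genes of 6 lists in aEpiLCs (left) and pEpiLCs (right); filled points were called, open points were not, dotted lines mark a 2-fold change, and triangles are bounds for genes at the detection limit in the later state. In aEpiLCs the germline lists hold 7 of 10, 12 of 23, 10 of 16 and 8 of 15 genes called lower, and the list of PRC1.6 and H3K9 genes holds 0 of 17.

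Of 26 genes listed for the silencing machinery, 1 was called lower in aEpiLCs and 3 in pEpiLCs, where 5.24% and 8.13% of all tested genes were called lower, so these counts are near the background. Of 17 genes of PRC1.6 and H3K9 methylation, 0 were called in any of the 3 comparisons by edgeR's quasi-likelihood test with the fold limit. Without that limit 7 of 17 passed the adjusted p as lower in each comparison with EpiLC, beside 22.6% of all tested genes in aEpiLCs and 21.4% in pEpiLCs, and 2 passed as higher, with log2 fold changes of 0.31 for Tfdp2 and 0.17 for Rnf2 in aEpiLCs (adjusted p = 0.00547 and 0.0401) and of 0.71 for Yaf2 and 0.21 for Rnf2 in pEpiLCs (adjusted p = 0.00207 and 0.035). The share of all tested genes passing as higher is not given here, so the count of 2 is not read as a result. Setdb1, an H3K9 methyltransferase, was at 135, 118 and 132 CPM in EpiLCs, 124, 125 and 117 CPM in aEpiLCs and 143, 133 and 133 CPM in pEpiLCs, and E2f6 at 49.6 to 57.6, 56.6 to 63.4 and 55 to 62.5 CPM. Setdb1, E2f6, Tfdp2, Rnf2, Yaf2 and Pcgf6 were named after their values were seen. Cbx3, encoding a heterochromatin protein of the HP1 family, had means of 332, 329 and 326 CPM. Pcgf6, the subunit that defines PRC1.6, had a log2 fold change of −0.48 in aEpiLCs (adjusted p = 0.000335) and −0.45 in pEpiLCs (adjusted p = 0.00323), and Cbx1, another HP1 gene, −0.36 and −0.83 (adjusted p = 0.000255 and 0.000695).

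All of these calls fell in the list of 9 genes of DNA methylation and its removal, with 1 called lower in aEpiLCs and 3 in pEpiLCs (2 without pEpiLC replicate 1), beside the same 5.24% and 8.13% of all tested genes. Dnmt3l, the partner of the de novo methyltransferases, was at 69.4, 68.2 and 79.2 CPM in EpiLCs, 6.24, 8.37 and 10.6 CPM in aEpiLCs and 4.41, 6.13 and 9.45 CPM in pEpiLCs. It was far lower in every later library, with log2 fold changes of −3.12 (adjusted p = 3.07e-09) and −3.44 (adjusted p = 0.000115). Dnmt3b was at 2800, 2490 and 2720 CPM in EpiLCs, 2590, 2610 and 2360 CPM in aEpiLCs and 747, 1610 and 1410 CPM in pEpiLCs. It overlapped EpiLCs in aEpiLCs (−0.10, adjusted p = 0.215) and was called lower in pEpiLCs (−1.09, adjusted p = 0.00932), a call that was lost without pEpiLC replicate 1 (−0.83, adjusted p = 4.25e-08, short of the fold limit). It was the 1 silencing gene called between pEpiLCs and aEpiLCs (−1.02, adjusted p = 0.0303), and this call too was lost without pEpiLC replicate 1 (−0.75, adjusted p = 5.42e-05), as it was without pEpiLC replicate 3 or any 1 of the aEpiLC libraries. Dnmt3a had means of 543, 316 and 185 CPM, with −0.80 in aEpiLCs (adjusted p = 5.28e-06), short of the fold limit, and −1.56 in pEpiLCs (adjusted p = 0.00132). The maintenance methyltransferase gene Dnmt1 had means of 462, 441 and 460 CPM (−0.08 and −0.01, adjusted p = 0.244 and 0.918).

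Markers of other cells that could hold germline transcripts were read beside the 10 genes. The 5 markers of 2-cell-like cells in the table, a rare class in ESC cultures, summed to 12.8–15.9 CPM in EpiLCs, 4.46–5.44 in aEpiLCs and 2.37–5.08 in pEpiLCs, and so moved with the 10 genes. Zscan4f, for example, was called lower in both (−1.59 and −1.98, adjusted p = 2.00e-05 and 0.00337). The 9 naive ESC markers summed to 36.8–40.3, 20.2–22.1 and 24.3–28.3 CPM, and Prdm14 was at or under 3 counts in all EpiLC and aEpiLC libraries. Its members moved both ways: in aEpiLCs Nr0b1 (−1.61), Dppa3 (−1.48), Zfp42 (−1.32) and Esrrb (−1.10) were called lower and Klf2 (1.05) higher (adjusted p = 1.79e-05, 0.0121, 6.53e-07, 0.00089 and 0.00441). In pEpiLCs Nr0b1 (−3.33, adjusted p = 0.000549) and Dppa3 were called lower, and Esrrb was above EpiLCs in every library (0.44, adjusted p = 0.0764). The 8 primordial germ cell markers summed to 49.7–58.9, 54.5–61.9 and 93.8–103 CPM, with Kit, a receptor also found in other cells, called higher in both later states (1.12 and 2.11, adjusted p = 1.32e-05 and 3.91e-05). Of the 6 tested markers of that list, 2 had a positive fitted change in aEpiLCs and 5 in pEpiLCs. Prdm14 and Nanos3 were at or under 3 counts in EpiLCs and aEpiLCs. In pEpiLC replicates 1 to 3 Prdm14 had 4, 0 and 2 counts and Nanos3 12, 2 and 1. Dppa3 was called lower in both later states (−1.48 and −2.69, adjusted p = 0.0121 and 0.0051), with 8 counts in all in pEpiLCs. Prdm1 was called lower in aEpiLCs (−1.95, adjusted p = 0.00214) and not in pEpiLCs (0.14, adjusted p = 0.877, but −1.02 and called lower without pEpiLC replicate 1). Tfap2c was called higher in pEpiLCs (1.86, adjusted p = 0.0262, and 1.13 and still called without that library). Dnd1 rose short of the fold limit (0.32 and 0.71, adjusted p = 0.0408 and 0.00266), and Alpl had −0.52 and 0.07 (adjusted p = 0.000371 and 0.705). The part of 2-cell-like or naive cells in the levels of the 10 genes was not tested. The 6 extraembryonic endoderm markers summed to 10.5–11.1 CPM in EpiLCs and 14.6–16.1 in aEpiLCs, and the 6 fibroblast markers to 21.6–25.8, 24.3–27.2 and 16.3–34.1 CPM. The fibroblast markers did not move together: Dcn was called lower in both later states (6.24, 1.70 and 0.244 CPM in EpiLCs, aEpiLCs and pEpiLCs; −1.89 and −4.64, adjusted p = 1.95e-05 and 8.10e-05), and Col1a2 was called higher in pEpiLCs (2.03, adjusted p = 0.00474). Their part in the levels of the 10 genes was not tested. The highest sum of the fibroblast list, in pEpiLC replicate 1, was carried by Pdgfrb (14.3 CPM) and Col1a2 (10.2 CPM); Col3a1 was at 0 there, and Col1a1, Dcn and Thy1 were at 1.39, 0.239 and 8 CPM, near the other pEpiLCs.

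**Figure D5:**
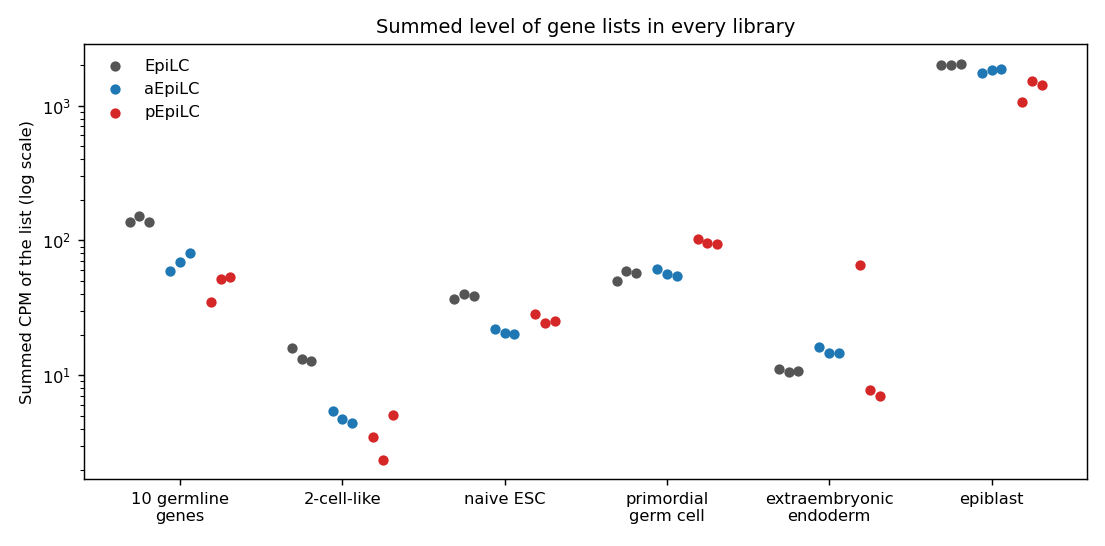
Summed CPM of the 10 germline genes and of 5 marker lists (vertical axis, log scale) in each of the 9 libraries, coloured by state with replicates 1 to 3 from left to right. The sum of the 10 genes steps down from 136–153 to 59.8–80 and 34.7–53.7 CPM, the 2-cell-like list is lower in both later states, and the extraembryonic endoderm list is at 65.9 CPM in pEpiLC replicate 1, where Gata6 (46.7 CPM) and Gata4 (12.4 CPM) carry it.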

How the data were processed

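Bulk RNA-seq was done on 9 libraries of mouse EpiLCs, aEpiLCs and pEpiLCs, grouped by their labels. The submitters' processing notes name STAR 2.7.9a and RSEM 1.3.1, with GRCm38 as the genome; the gene annotation and strand setting are not given in the sources used here. The values deposited by the authors are expected counts estimated by RSEM per gene symbol, without normalisation. They were rounded to whole numbers. For each comparison, the 6 libraries concerned were fitted in edgeR 4.0.16 (R 4.3.3; TMM, filterByExpr, glmQLFit and glmQLFTest), with Benjamini-Hochberg adjustment over all genes tested. CPM were TMM-normalised over the 9 libraries. A change against a state with at most 3 counts in each library is given as a bound. The detection limit covers counting error only. On simulated counts with 200 genes changed by 2 on the log2 scale, 100, 94 and 96% were recovered, with 2, 11 and 7 false calls, among 15301, 15288 and 15198 genes (aEpiLC and pEpiLC against EpiLC, and pEpiLC against aEpiLC). The changed genes were drawn above a minimum mean CPM, so recovery at lower levels was not simulated. Changes near the fold limit were not simulated either.

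Positions and exon lengths were those of GENCODE vM21 (GRCm38), where 1 gene was found for 22821 symbols (97.3%), and promoter windows those of RefSeq (GRCm38.p6). Hormad1 and Stk31 had 2 windows listed, of which 1 was used. The 10 genes, the lists and their markers were chosen with earlier results of these data known. Named beside the 10 were, per list, up to 6 called genes with the largest fold change and the 2 with the highest mean CPM, with examples given from these, and genes of the marker lists as checks; other genes are marked in the text as named after their values were seen. The alternatives were other size factors, DESeq2 1.42.0, edgeR's likelihood ratio test, other filters, 1 fit of 9 libraries, a replicate block, no fold limit, and leaving out each library.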

Additional observations from a re-analysis of the deposited data

How the results depend on the processing

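Over the alternatives other than dropping the fold limit, the fitted changes of the tested genes among the 10 kept their direction and call in 328 of the instances, gained a call in 6, lost it in 1 and turned sign in 1. The sign turned for Sycp3 in aEpiLCs against EpiLCs without aEpiLC replicate 1 (log2 fold change 0.00766, adjusted p = 0.965 by edgeR; −0.289 to 0.00766 over the fits that leave out 1 library). The number of the 10 called lay between 7 and 8 in aEpiLCs against EpiLCs and stayed at 8 in pEpiLCs against EpiLCs when 1 library was left out. Between pEpiLCs and aEpiLCs it was 0 to 0 in those fits, and 1 (Mael) under DESeq2, edgeR's likelihood ratio test and the fit of all 9 libraries (adjusted p = 0.0297, 0.0387 and 0.0303). Leaving out 1 library gave 28 to 30, 29 to 34 and 1 to 6 other germline genes called (aEpiLC and pEpiLC against EpiLC, then pEpiLC against aEpiLC), and 1 to 1, 2 to 3 and 0 to 1 silencing genes. With no fold limit, 8, 9 and 0 of the 10 passed, with Ddx4 gained in aEpiLCs and Sycp3 in pEpiLCs, and 15, 14 and 7 silencing genes were called in the same order, in place of 1, 3 and 1, and over all genes 7130, 6759 and 2369 in place of 1911, 2421 and 1108. With at least 10 counts in every library 1259 genes were called in aEpiLCs against EpiLCs, and without aEpiLC replicate 1, 2 or 3, 648, 514 and 583 in pEpiLCs against aEpiLCs. That filter of 10 counts also removes Hormad1, at 3 to 6 counts in each later library, and other germline genes at low counts. The ranges above, from leaving out libraries, do not cover it. Genes near 3 counts, Asz1 and in later states Hormad1, are limited by depth.

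Replicate numbers were not taken to pair the libraries: correlations of same-numbered deviations lay between −0.0601 and 0.0209 for aEpiLC with EpiLC, between 0.0153 and 0.0336 for pEpiLC with EpiLC, and at 0.172, 0.117 and 0.0621 for pEpiLC with aEpiLC. With the replicate block, 1 of the 10 was called between pEpiLCs and aEpiLCs (Mael, adjusted p = 0.047), and no other call among the 10 changed.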
